A study of Mus musculus with 2 samples.

Results

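A set of 10 genes of the oxidative stress and glutathione response was followed in single cells of mouse ear skin: Hmox1, Nqo1, Gclc, Gclm, Srxn1, Txnrd1, Slc7a11, Gsta4, Gstm1 and Gpx3. These genes were 10 of 27998 in the deposited matrices, and all were present in both. They were chosen by name, with earlier results of these data known. The reason was that the agent used in the study, dinitrofluorobenzene (DNFB), is an electrophile that binds protein and glutathione thiols. One library came from healthy control ear skin and 1 from ear skin in which allergic contact dermatitis (ACD) had been elicited with DNFB, both from ICR mice aged 7 to 8 weeks. According to the study's methods male mice were first sensitized with DNFB on the back and the ears were painted later with a lower dose. How many animals went into each library is not stated in the sources used here. The ACD library stands for a single time after the painting, so earlier levels were not seen. The question put to the data was in which cell classes the levels of these genes differed between ACD and control skin.

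Cells under electrophilic stress release the transcription factor NRF2 (Nfe2l2) from its inhibitor KEAP1, and NRF2 then binds antioxidant response elements before genes that make glutathione, reduce quinones, recharge thioredoxin and degrade heme. Gclc and Gclm are the catalytic and modifier subunits of the enzyme that starts glutathione synthesis, and Slc7a11 is the cystine importer that feeds it. Gsta4 and Gstm1 are glutathione S-transferases that couple glutathione to electrophiles. Txnrd1 reduces thioredoxin, Srxn1 repairs over-oxidized peroxiredoxins, Nqo1 reduces quinones and Hmox1 cleaves heme. Gpx3 is a secreted glutathione peroxidase. In skin, keratinocytes are the first cells that meet a painted hapten.

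Among the 10 genes, 7 had RefSeq start-site windows (GRCm38.p6, 250 bases before to 50 after the start, 10 windows in all). Each was searched on both strands for the core antioxidant response element TGACNNNGC, which 12.4% of all 32851 windows hold, and for the AP-1 motif TGACTCA, which 5.20% hold. Gclm, Srxn1 and Txnrd1 held a match to the first motif, Txnrd1 in 1 of its 3 windows. Counted by gene, 14.0% of all 27025 genes held a match to it. The Srxn1 match began 29 bases after the start, and Srxn1 also held 2 AP-1 matches before it. No window of Nqo1, Slc7a11, Gstm1 or Gpx3 held either motif. Sequence farther than 250 bases before the start was not searched, so elements there would be missed. The stretches before the start that hold a match of either motif are shown, the first motif in Gclm and Txnrd1 and the AP-1 motif in Srxn1; capitals mark the matches, each lying on the opposite strand, and no match of one motif overlapped one of the other.
Gclm, chr3:122245363-122245491, plus strand: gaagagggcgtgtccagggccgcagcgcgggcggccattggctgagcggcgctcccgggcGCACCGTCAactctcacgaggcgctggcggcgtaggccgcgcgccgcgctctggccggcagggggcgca
Srxn1, chr2:152105362-152105523, plus strand: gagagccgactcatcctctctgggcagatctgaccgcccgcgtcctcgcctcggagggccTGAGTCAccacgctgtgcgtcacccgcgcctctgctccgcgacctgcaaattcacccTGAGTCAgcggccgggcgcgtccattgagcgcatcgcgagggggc
Txnrd1, chr10:82859054-82859182, plus strand: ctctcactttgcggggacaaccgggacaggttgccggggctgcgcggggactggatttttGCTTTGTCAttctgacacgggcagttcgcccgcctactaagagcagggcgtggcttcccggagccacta

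The genes lie on 6 chromosomes of GRCm38 (annotation GENCODE M21; the libraries were aligned to mm10, the same assembly). Hmox1 (chr8:75093621-75100589) and Nqo1 (chr8:107388225-107403206) are on chromosome 8. Gclm (chr3:122245557-122270732), Slc7a11 (chr3:49892526-50443614) and Gstm1 (chr3:108012255-108017973) are on chromosome 3. Gclc (chr9:77754535-77794485) and Gsta4 (chr9:78182774-78209349) are on chromosome 9. Srxn1 (chr2:152105516-152111376), Txnrd1 (chr10:82833951-82897712) and Gpx3 (chr11:54902453-54910377) each stand alone on theirs. Of the 10, only Slc7a11 overlaps another gene counted in the files. The last 400 bases of the coding transcripts, from which these 3-prime reads come, shared no run of 60 bases with another gene in 9 of the 10; in Gstm1, 22.0% of such runs also occur in Gstm3, Gstm2-ps1 or Gm8834, so Gstm1 counts depend on how the counting treated reads that fit several genes.

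The control library held 12895 barcodes and 99037698 UMIs (unique molecular identifiers, 1 per captured transcript), and the ACD library 13163 barcodes and 126566870 UMIs; 50 barcodes occurred in both. Barcodes were kept if they had more than 200 and fewer than 5000 genes, no more than 25000 UMIs and a mitochondrial share below 8%. This left 12213 control and 11665 ACD cells, with a median of 6850 and 7447 UMIs. Cells were put in 15 classes by marker genes, and 12.1% of cells in each library were left unassigned. Levels are counts scaled to 1000000 UMIs of the class (CPM), with a 95% exact Poisson interval in brackets. With 1 library per condition there is no replicate, no test was made, and intervals cover counting error only, so condition and preparation cannot be told apart. A gene with at least 50 UMIs in a class over both libraries is called higher or lower where the ratio of levels, with 10 CPM added to each, was 2-fold or more.

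In all 15 classes the gate's own markers outnumbered those of other classes among the 10 leading genes. The gate selected cells on these same markers, so this count cannot test the classes. None of the 10 genes of the set served as a marker. Gpx3 itself was among the 10 leading genes of muscle satellite-like cells and of preadipocyte-type fibroblasts.

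Keratinocytes were few: 164 control and 125 ACD cells passed the gate, led by Krt14, Krt15 and Krt5. Of the 10 genes 5 had 50 UMIs there, and 0 of them were higher and 0 lower by 2-fold, against 1.61% of all 6949 genes higher and 0.403% lower. Their median log2 ratio, with 10 added, was -0.25, against -0.05 over all genes. Gclm was the glutathione gene most typical of keratinocytes, 148 (132-164) CPM in control and 158 (140.0-178) in ACD cells, a log2 ratio of 0.10 (-0.14 to 0.33). This was the highest Gclm level of any class in both libraries, and the 2 libraries did not differ beyond counting error. Its partner subunit Gclc was lower in ACD, 55.2 (46.0-65.7) against 29.6 (22.1-38.8), a log2 ratio of -0.90 (-1.40 to -0.42). Gstm1 was also lower, 227 (208-247) in control and 139.9 (123-158) in ACD, a log2 ratio of -0.70 (-0.92 to -0.48), ranking 6834 of 6949 genes from the highest ratio. Txnrd1 (49.0 and 39.8 CPM) and Nqo1 (18.0 and 20.5) had ratios whose intervals held 0.

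The other 5 genes rested on few keratinocyte UMIs. Hmox1 had 14 UMIs in control and 26 in ACD keratinocytes, 6.13 (3.35-10.3) against 14.8 (9.66-21.7) CPM, a log2 ratio of 1.27 (0.28 to 2.32). Srxn1 had 10 and 23 UMIs, 4.38 (2.10-8.05) against 13.1 (8.29-19.6) CPM, a log2 ratio of 1.58 (0.45 to 2.81), and 5 ACD cells held 87.0% of those 23. Both ratio intervals left out 0, although the intervals of the Hmox1 levels overlapped, and both genes were under the 50 UMIs required. Gsta4 went the other way, with 32 UMIs in control and 9 in ACD, 14.0 against 5.12 CPM. Slc7a11 gave 1 UMI in control and 0 in ACD keratinocytes, and Gpx3 2 in each. For comparison, lymphocyte-like cells, a class not known for either gene, held Hmox1 at 3.29 and 6.87 CPM (in control and ACD). Srxn1 stood at 2.99 and 4.81 there. That class was not split into types, so it cannot separate free RNA from its own. The log2 ratio in lymphocyte-like cells was thus 1.06 for Hmox1 and 0.69 for Srxn1, and the Srxn1 interval held 0. Hemoglobin RNA in keratinocytes was 49.5 in control and 8930 CPM in ACD, and mononuclear phagocyte markers stood at 238 and 952. Their part in these values was not tested. The phagocyte sum is over 12 markers, Cd74 among them. How much of it was the cells' own RNA was not tested, here or in other classes. Within the basal keratinocytes alone (101 and 71 cells) Gstm1 was 270.0 and 151, Gclc 48.7 and 27.2, and Gclm 161 and 151 CPM.

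**Figure D1:**
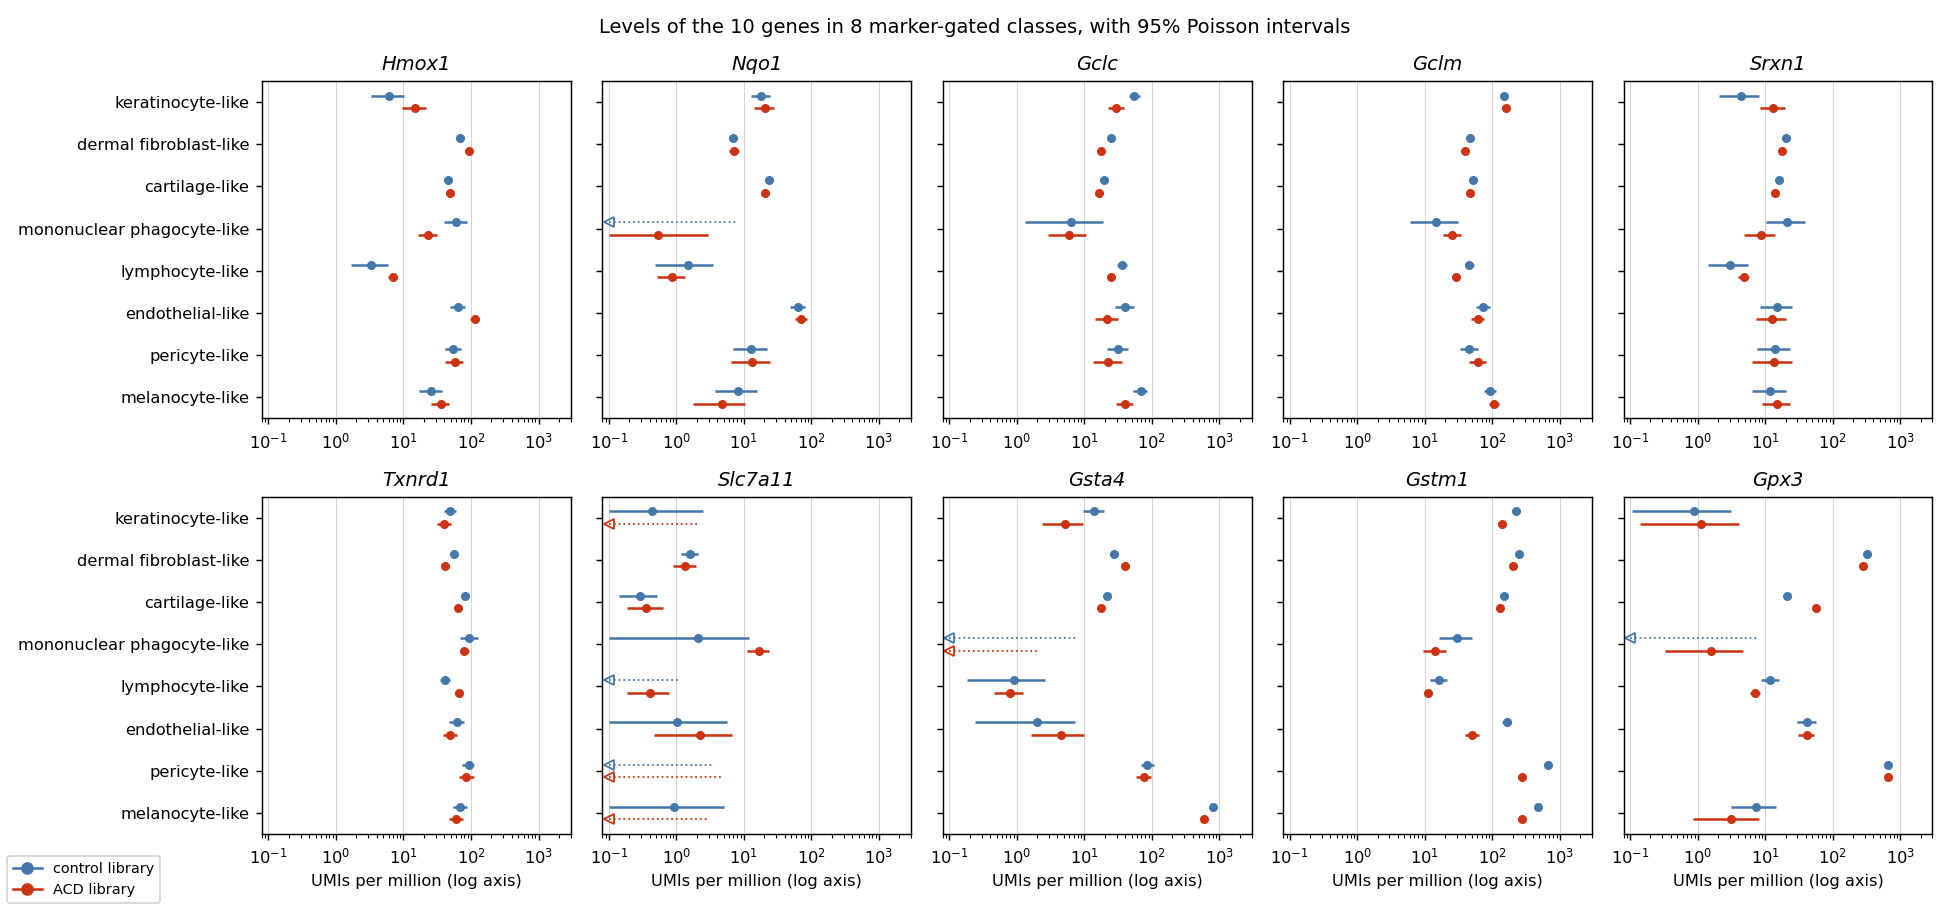
Level of each gene (CPM, log axis) in 8 marker-gated classes of the control (blue) and ACD (red) library; points are levels, bars 95% Poisson intervals, and open arrows with dotted bars mark 0 UMIs with the upper limit. Gclm is highest in keratinocytes (148 and 158), Gsta4 in melanocytes (810 and 595), Nqo1 in endothelial cells, and Gpx3 stands at 318 and 285 in dermal fibroblasts but near 1 in keratinocytes.

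Dermal fibroblasts, with 3797 control and 1807 ACD cells, gave at least 50 UMIs for all 10 genes. Again 0 were higher and 0 lower by 2-fold, against 0.841% and 0.146% of 12368 genes, and 7 of the 10 ratios were below 0, with a median of -0.15 against -0.00. Hmox1 and Gsta4 were the 2 genes clearly above. Hmox1 stood at 68.0 (65.1-71.0) in control and 92.4 (88.2-96.8) in ACD, a log2 ratio of 0.44 (0.35 to 0.53), which is 1.36-fold. Gsta4, which acts on lipid peroxidation products, stood at 27.5 (25.7-29.4) and 40.6 (37.8-43.5), a log2 ratio of 0.56 (0.42 to 0.70). For 6 of the others the interval of the ratio lay below 0, while the share of all genes with such an interval was not computed. Txnrd1 was 56.6 (54.0-59.4) in control and 40.8 (38.0-43.7) in ACD, Gclc 24.4 (22.7-26.2) and 17.7 (15.9-19.7), Gclm 46.3 and 39.6, Srxn1 20.7 and 17.7, and Gstm1 253 (247-258) and 205 (199-212) CPM. Gpx3 was 318 (312-324) and 285 (278-293). Nqo1, at 6.84 and 7.09, and Slc7a11, at 1.59 and 1.35, had ratios whose intervals held 0.

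The class ratio of Gsta4 was not seen in each subtype. In the 4 fibroblast subtypes Gsta4 was 20.8 and 30.6 in adventitial progenitors, 23.7 and 28.8 in preadipocytes, 16.1 and 15.9 in reticular or papillary cells, and 94.1 and 104.5 in peri-follicular cells. Only the adventitial ratio, 0.56 (0.11 to 1.01), left out 0. Peri-follicular cells, where Gsta4 was highest, made up 431 of 3797 control and 445 of 1807 ACD fibroblasts; the part of this make-up in the class ratio was not tested. Hmox1 was higher in ACD beyond counting error in 3 of the 4. The largest ratio was in peri-follicular cells, with Coch and Crabp1 as leading genes: 77 UMIs or 33.4 (26.3-41.7) CPM in control and 267 UMIs or 76.0 (67.2-85.7) in ACD, 2.28-fold, a log2 ratio of 1.19 (0.82 to 1.57). With 10 added it was 0.99, just under the 2-fold call, and it ranked 91 of 8211 genes. Reticular or papillary cells had 74.3 and 108 CPM and preadipocytes 67.8 and 102, while for the adventitial levels, 51.9 and 60.2, the interval of the ratio held 0 (-0.08 to 0.51). After thinning each cell to 2000 UMIs, 5.16% of control and 11.1% of ACD peri-follicular cells had an Hmox1 UMI (13.2% and 31.0% unthinned), against 0.81% and 1.22% of lymphocyte-like cells. In peri-follicular cells hemoglobin was 2665 CPM in control and 111 in ACD, mononuclear phagocyte markers 9.54 and 50.1, and the dissociation and heat-shock list 12158 and 14318. In all dermal fibroblasts their own markers summed to 78342 and 52462, mononuclear phagocyte markers to 36.3 and 144, hemoglobin to 1834 and 865, and the dissociation and heat-shock list to 15285 and 17435; the part of these in the fibroblast values was not tested.

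Txnrd1 was lower in ACD in all 4 fibroblast subtypes, most in preadipocytes, 63.1 (53.4-74.1) against 31.2 (23.3-40.9), a log2 ratio of -1.02; in peri-follicular cells its interval held 0. Gclc was lower in preadipocytes, 34.7 against 20.4, and in reticular or papillary cells, 22.3 against 17.3. Gstm1 was lower in adventitial (292 and 244) and reticular or papillary cells (239 and 196), yet 326 (304-350) and 326 (299-354) in preadipocytes. Gpx3 marked preadipocytes above all other fibroblasts, at 1101 (1059-1145) in control and 915 (870-962) in ACD. It was 492 and 506 in adventitial progenitors, 176 and 145 in reticular or papillary cells, and 3.47 and 13.7 in peri-follicular cells. The last pair rested on 8 and 48 UMIs, and 5 ACD cells held 77.1% of the 48.

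Cartilage cells were the largest class, 4678 control and 3332 ACD cells with Col2a1, Col9a1 and Acan among the leading genes. One of the 9 genes with 50 UMIs was higher, Gpx3, against 0.448% of 12939 genes, and 0 were lower, against 0.00773%; 7 of the 9 ratios were below 0, with a median of -0.14 against -0.02. Gpx3 was counted 805 times in control and 1900 times in ACD cartilage, 20.8 (19.4-22.3) against 56.8 (54.3-59.5) CPM, which is 2.73-fold and a log2 ratio of 1.45 (1.33 to 1.57). It ranked 47 of 12939 genes from the highest ratio. In every cartilage subtype the ACD level lay above the control interval: 6.22 and 21.9 in mature chondrocytes, 16.8 and 36.8 in cells gated on Cytl1 and Wif1, 31.0 and 71.4 in cells gated on Ucma, Smoc1 and Gdf5, and 25.3 and 71.3 in perichondrial cells. The perichondrial level was 2.82-fold higher, also past 2-fold with 10 added, as were 0.951% of 9776 genes; the other 3 subtypes were under it.

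The Gpx3 UMIs of cartilage sat in few cells. After each cell was thinned to 2000 UMIs, 103 of 4661 control cells had a Gpx3 UMI, 2.21% (1.81-2.67), and 148 of 3313 ACD cells, 4.47% (3.79-5.23). Unthinned, the shares were 5.43% and 11.3%, and the 5 highest cells held 15.8% and 20.5% of all Gpx3 UMIs. In lymphocyte-like cells the thinned share was 1.21% in control and 0.671% in ACD (median depths 3584 and 5310 UMIs a cell, against 7639 and 9330.5 in cartilage). The share in ACD cartilage lay above that of lymphocyte-like cells, while in control the intervals of cartilage and lymphocyte-like cells (0.557-2.29) overlapped. Lymphocyte-like cells were not split into types, and a few cells held most of their Gpx3 UMIs. Their share therefore cannot measure free RNA, and the part of free RNA in the cartilage values was not tested. The 2-fold call, made with 10 CPM added, was lost with a looser gate (log2 ratio without the 10 CPM 1.27) and after thinning (1.32). Summed dermal fibroblast markers in cartilage cells were 18107 CPM in control and 15694 in ACD, mononuclear phagocyte markers 30.0 and 439, hemoglobin 736 and 2267, and the dissociation and heat-shock list 22055 and 24564; their part in the Gpx3 values was not tested.

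The remaining genes differed less in cartilage. Txnrd1 was 80.7 (77.9-83.6) in control and 63.4 (60.7-66.1) in ACD, a log2 ratio of -0.35 (-0.43 to -0.27). Gstm1 was 149 and 130.4, Gclm 51.3 and 46.3, Gclc 19.6 and 16.7, Srxn1 16.0 and 14.1, Gsta4 21.8 and 17.7, and Nqo1 23.7 and 20.7 CPM; the intervals of all these ratios left out 0. Slc7a11 gave 11 and 12 UMIs. Hmox1 was 45.4 (43.3-47.6) and 49.2 (46.9-51.7), a log2 ratio of 0.12 (0.02 to 0.21). By subtype Hmox1 ran from 21.4 and 21.9 in mature chondrocytes to 69.6 and 71.9 in perichondrial cells, so the spread between subtypes was wider than the difference between the libraries. Gclm was higher in ACD mature chondrocytes, 29.0 against 43.3, and lower in the Ucma, Smoc1 and Gdf5 cells, 63.5 against 50.5.

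**Figure D2:**
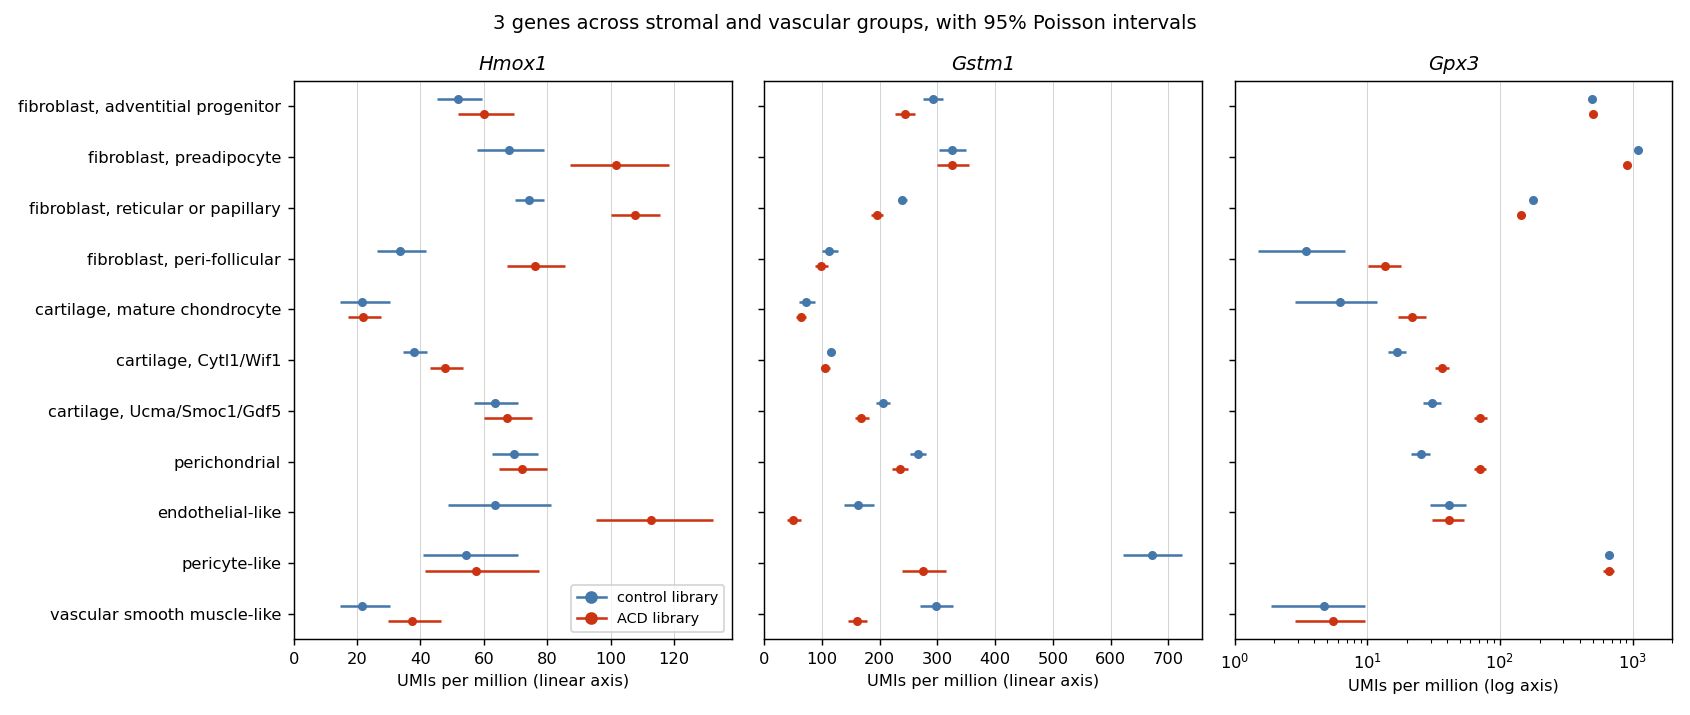
Levels of Hmox1 and Gstm1 (linear axes) and Gpx3 (log axis), in CPM with 95% Poisson intervals, in stromal and vascular groups of the control (blue) and ACD (red) library. Hmox1 is higher in ACD in peri-follicular fibroblasts (33.4 and 76.0) and endothelial cells (63.4 and 113), Gstm1 lower in pericytes (672 and 275), and Gpx3 higher in all 4 cartilage groups.

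Mononuclear phagocytes numbered 62 in control and 251 in ACD skin, and 3 of the 10 genes had 50 UMIs. None was higher by 2-fold (0, against 4.12% of 5025 genes) and 1 was lower, Hmox1, against 2.95%. Hmox1 had 28 UMIs or 59.4 (39.5-85.9) CPM in control and 43 UMIs or 22.9 (16.6-30.9) in ACD, a log2 ratio of -1.38 (-2.09 to -0.63). All 28 control UMIs came from 18 cells gated as macrophages by C1qa, C1qb, C1qc, Mrc1 and Adgre1, and 5 cells of the class held 78.6% of them. The ACD class held 15 such macrophages, with 9 of the 43 UMIs. Macrophage levels were 276 (183-399) in control and 119 (54.6-227) in ACD. Dendritic cells (13 and 36) gave 0 and 2 Hmox1 UMIs, Langerhans cells (23 and 21) 0 and 1, and the monocyte gate, which took 0 control and 70 ACD cells, gave 7. The other 24 ACD UMIs, most of the 43, came from 109 phagocytes in no subtype gate; the 8 such control cells gave 0. Macrophages were 18 of 62 control and 15 of 251 ACD phagocytes, and the part of this make-up in the ratio was not tested. The 2-fold call, made with 10 CPM added, was lost with a looser gate (log2 ratio without the 10 CPM -1.11) and with all deposited barcodes (-1.25).

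Txnrd1 was the best covered member in phagocytes, 93.4 (67.9-125) in control and 79.9 (67.6-93.8) in ACD, a log2 ratio of -0.22 (-0.72 to 0.29). Gclm stood at 14.9 (5.97-30.6) and 25.6 (18.9-33.9), a log2 ratio of 0.78 (-0.37 to 2.17). Slc7a11 had 1 UMI in control and 31 in ACD, 2.12 (0.0537-11.8) against 16.5 (11.2-23.4) CPM, with 10 of the 31 in the monocyte gate. That is a ratio whose interval left out 0, at fewer than 50 UMIs. Gsta4 gave 0 UMIs in both libraries, which at 3 counts per library allows up to 6.37 CPM in control and 1.60 in ACD; Nqo1 gave 0 and 1 and Gpx3 0 and 3.

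Neutrophil-like cells were almost confined to the ACD library by number, 60 cells against 3, so no ratio is given. Slc7a11 stood at 676 (540-836) CPM in the 60 ACD cells, 85 UMIs, and 19 of 28 cells that could be thinned to 2000 UMIs had one. The 3 control cells held 5 Slc7a11 UMIs among 5979 UMIs, and the ACD cells 85 among 125741. A high Slc7a11 level was thus not seen in ACD neutrophils alone, though 3 cells are too few to compare. No other class was above 16.5 CPM in ACD, and neutrophils, 0.514% of the kept ACD cells, held 41.5% of all Slc7a11 UMIs of that library. Txnrd1 was also highest there, 358 (261-479). Hmox1 was 79.5 (38.1-146) from 10 UMIs. Nqo1 and Gsta4 gave 0 UMIs. Among basophil-like cells, 232 in ACD and 7 in control, Srxn1 reached 50.7 (37.4-67.2), the highest Srxn1 level of the ACD groups, though its interval overlapped that of mast cells.

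In vascular cells Gstm1 was lower in ACD. The endothelial class, led by Ccl21a, Cldn5 and Mmrn1, was not split into vessel types. Its median depth was 4848 UMIs a cell in control and 10112 in ACD. The part of make-up and depth in the endothelial values was not tested. In endothelial cells (144 and 122) 1 of 7 genes with 50 UMIs was lower, Gstm1, against 1.29% of 5484 genes. It had 162 UMIs or 163 (139-190) CPM in control and 67 UMIs or 50.1 (38.8-63.6) in ACD, a log2 ratio of -1.70 (-2.14 to -1.28), rank 5475 of 5484. In pericytes (225 and 85) 1 of 6 genes was lower, again Gstm1, against 1.56% of 4476 genes: 672 (622-724) against 275 (239-315), a log2 ratio of -1.29 (-1.52 to -1.06), with 5 ACD cells holding 37.4% of the UMIs. The thinned share of cells with a Gstm1 UMI was 25.0% and 10.7% in endothelial cells and 60.7% and 35.3% in pericytes, against 3.51% and 2.59% in lymphocyte-like cells. In vascular smooth muscle Gstm1 was 297 and 161, and in melanocytes 478 and 279. Of the 16 groups with 50 Gstm1 UMIs none had a ratio above 0, and 11 intervals lay wholly below it. How often other genes did the same was not computed.

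Endothelial cells went the other way for Hmox1, 63.4 (48.7-81.1) in control and 113 (95.5-132) in ACD, a log2 ratio of 0.83 (0.40 to 1.28), with 5 ACD cells holding 46.4% of the UMIs. The thinned share of endothelial cells with an Hmox1 UMI, 12.9% (7.68-19.8) and 14.9% (9.06-22.5), did not differ beyond its interval. Vascular smooth muscle had 21.5 (14.7-30.3) and 37.3 (29.7-46.4), and pericytes 54.3 and 57.4. Nqo1 was highest in endothelial cells in both libraries, 63.4 (48.7-81.1) and 70.2 (56.8-85.9), above mature chondrocytes at 31.8 and 27.0 with no overlap of intervals. In endothelial cells summed mononuclear phagocyte markers, Cd74 among them, were 31.2 CPM in control and 1058 in ACD. Hemoglobin was 93.6 and 6240, dermal fibroblast markers 967 and 315, and the dissociation and heat-shock list 27058 and 18841. In the same order pericytes had 13.8 and 146, 118 and 89.5, 4702 and 3979, and 17122 and 14686. Vascular smooth muscle had phagocyte markers at 4.70 and 89.0, hemoglobin at 80.5 and 6036, and a median depth of 5387 and 9974 UMIs. The part of all these in the Gstm1 and Hmox1 values was not tested.

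The remaining classes each had a feature of their own. Gsta4 was highest in melanocytes by a wide margin, 810 (757-865) in control and 595 (553-639) in ACD, a log2 ratio of -0.45 (-0.59 to -0.30), the next ACD group standing at 104.5. Gclc was also highest there, 67.9 and 40.1, overlapping keratinocytes in both libraries. Lymphocyte-like cells (785 and 3357) had higher Txnrd1 in ACD, 41.9 (35.2-49.4) against 65.7 (62.4-69.2), a log2 ratio of 0.65 (0.40 to 0.91) and the only Txnrd1 interval of 16 wholly above 0. In the same cells Gclm was 45.7 and 29.2 and Gclc 36.2 and 25.0. The median depth of these cells was 3584 and 5310 UMIs, hemoglobin 160.3 and 1469 CPM, and mononuclear phagocyte markers 523 and 396. The dissociation and heat-shock list stood at 6294 and 4852. The gate did not split lymphocytes into types, and the class was 6.43% of control and 28.8% of ACD cells. The paper reports that the shares of several lymphocyte types rose in ACD. The part of this make-up and of the other signals in the lymphocyte values was not tested. Muscle satellite-like cells had the highest Gpx3 of all groups, 1948 (1747-2165) from 40 control and 2166 (2026-2312) from 77 ACD cells. Schwann-like cells had Gsta4 at 113.5 and 75.9.

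Across the 17 groups that do not overlap, 9 classes and 8 stromal subtypes, 114 ratios had 50 UMIs. The counting interval lay above 0 in 15 and below 0 in 37, and held 0 in the other 62. Hmox1 was above in 7 groups and below in 1, Gpx3 above in 5 and below in 3, and Gclm, Txnrd1 and Gsta4 above in 1 each. Among the 7 for Hmox1 were lymphocyte-like cells (log2 ratio 1.06), the class set beside keratinocytes, which cannot separate free RNA from its own. Gclc was below in 7 of 13, Txnrd1 in 7 of 16 and Gstm1 in 11 of 16. Nqo1 was covered in 7 groups and never left 0. Slc7a11 reached 50 UMIs in none. All these ratios share the same 2 libraries, so they do not replicate one another. Over all kept cells together, the level of Gstm1 was 198 and 122 and that of Gpx3 139 and 104, in libraries of different make-up: dermal fibroblasts were 31.1% of control and 15.5% of ACD cells, and lymphocyte-like cells 6.43% and 28.8%. The part of the make-up in these differences was not tested.

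**Figure D3:**
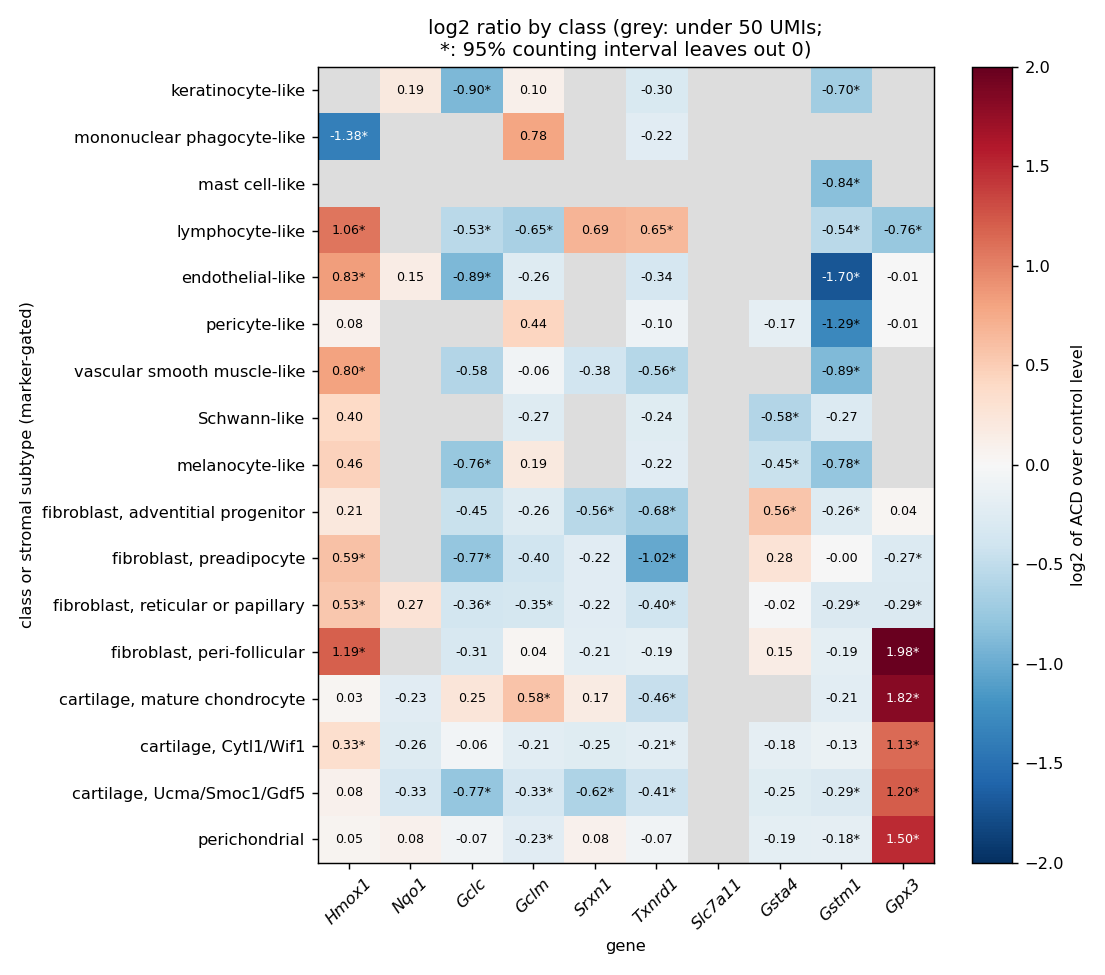
log2 ratio of ACD over control for each gene (columns) in 17 groups (rows); grey cells had under 50 UMIs and an asterisk marks a 95% counting interval that leaves out 0. The Gstm1 column lies at or below 0 throughout (-1.70 in endothelial cells), Hmox1 is above 0 except in mononuclear phagocytes (-1.38), and the Gpx3 ratio is highest in peri-follicular fibroblasts and the cartilage groups.

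The genes of 10 related lists gave the surroundings of these values. The 9 genes of the NRF2 switch were all covered in each of the 4 main classes. In keratinocytes 0 of 9 were past 2-fold, Nfe2l2 being 110.3 and 88.1 CPM and Keap1 34.6 and 39.2. In dermal fibroblasts and in cartilage 0 of 9 were past it, with Nfe2l2 at 122 and 127 and at 149.6 and 145. In mononuclear phagocytes 1 was lower, Maff, a small MAF partner of NRF2, at 140.1 and 65.0. Bach1, the repressor of Hmox1, was 169.8 and 87.9 there and Nfe2l2 144 and 218. Macrophages were 18 of 62 control and 15 of 251 ACD phagocytes. The part of this make-up in the phagocyte values of all the lists was not tested. Of 25 other NRF2 target genes, 24 were covered in keratinocytes, 25 in dermal fibroblasts, 25 in cartilage and 15 in phagocytes, and 0 were past 2-fold in any of these. Their median log2 ratios were 0.05, 0.10, -0.01 and 0.04. In keratinocytes the outermost were Me1 (55.2 and 33.0) and Osgin1 (23.6 and 14.8) below and Akr1b8 (12.3 and 21.6) and Pgd (17.1 and 26.7) above. Txn1, thioredoxin, was 587 and 779 there and 484 and 613 in dermal fibroblasts.

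Among 11 other glutathione S-transferases covered in keratinocytes 1 was lower, Gsta3, at 305 and 117 CPM, a log2 ratio of -1.39, next to Mgst1 at 593 and 323. Of the 17 covered in dermal fibroblasts 0 were past 2-fold and 15 of the 17 ratios were above 0; Gsta3 was 14.6 and 9.47 there. In the list of glutathione synthesis and transport, Ggt5 was higher in dermal fibroblasts, 8.92 and 28.5, the only one of 13, and Glrx, glutaredoxin, was higher in phagocytes, 23.3 and 79.9, the only one of 4. Among peroxidases and superoxide dismutases 0 of 14 were past 2-fold in keratinocytes, 0 of 17 in dermal fibroblasts and 0 of 17 in cartilage. The extracellular Sod3 was 81.8 and 169 and the mitochondrial Sod2 145 and 262 in dermal fibroblasts, and Sod3 243 and 329 in cartilage. In phagocytes 1 of 11 was higher, Prdx5, at 174 and 417. The part of the phagocyte make-up in the Glrx and Prdx5 values was not tested.

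Other heme and iron genes stayed within 2-fold in keratinocytes (9 covered), dermal fibroblasts (10) and cartilage (10). In phagocytes 1 of 9 was lower, Cd163, the hemoglobin scavenger receptor of resident macrophages, at 233 and 10.1 CPM, and Fth1, ferritin heavy chain, was 5719.9 and 8387. Metallothioneins stayed within 2-fold in the 4 classes, Mt1 being 4791 and 3224 in dermal fibroblasts. Of the oxidase list, Cybb (106 and 366) and Rac2 (70.0 and 189) were the 2 of 6 that were higher in phagocytes. Of 12 ATF4 targets, 0 of 9 were past 2-fold in keratinocytes, 0 of 12 in dermal fibroblasts and 0 of 12 in cartilage, and Atf3 alone was lower in phagocytes, 991 and 429. The 11 dissociation and heat-shock genes held Hspb1 as the 1 higher in keratinocytes (707 and 1673) and in dermal fibroblasts (207 and 499.7). Fos, Fosb, Egr1 and Atf3 were the 4 lower in phagocytes. The part of the phagocyte make-up in the Cd163, Cybb, Rac2, Atf3 and other phagocyte values was not tested.

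**Figure D4:**
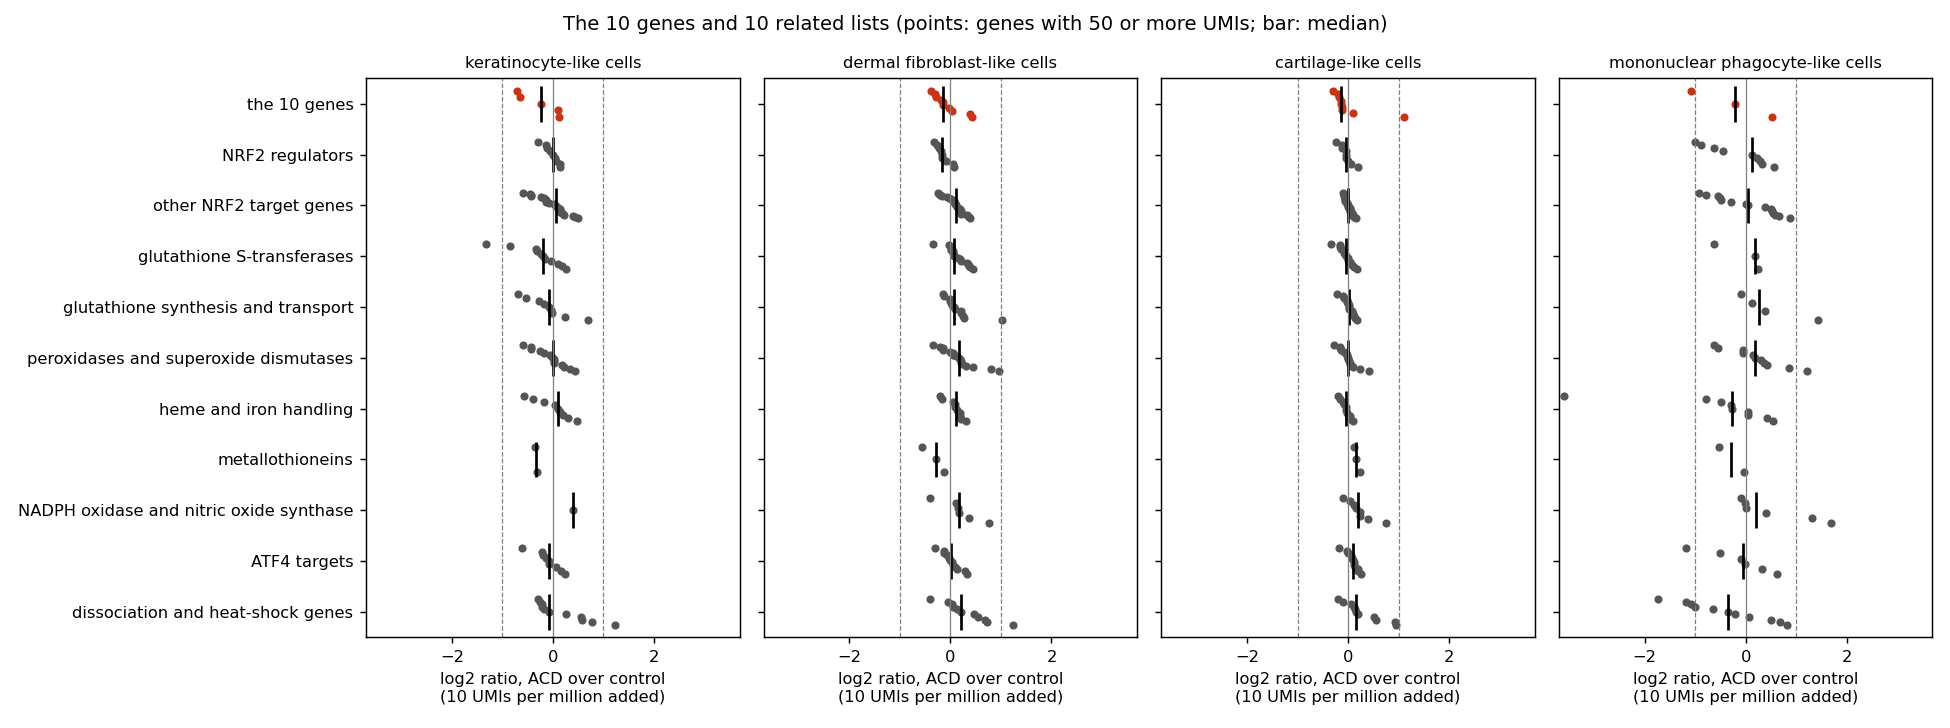
log2 ratios (10 CPM added) of the 10 genes (red) and of 10 related lists (grey) in the 4 main classes; each point is a gene with at least 50 UMIs, black bars are medians and dashed lines mark a 2-fold difference. Nearly all points lie between the dashed lines; the exceptions among the 10 genes are Gpx3 in cartilage (1.12) and Hmox1 in mononuclear phagocytes (-1.08).

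Genes whose level followed a member most closely were listed over 32 class-by-library groups of at least 100 cells, among 11893 genes, as Pearson correlations of levels; the groups share 2 libraries, so these are descriptions. Nqo1 was closest to Galnt18 (0.91), Efna1 (0.90) and Mall (0.87), and Gsta4 to Abat (0.92), Car11 (0.86) and Gng7 (0.86). Slc7a11 was closest to Clec4e (0.96), Il1b (0.95) and Cfp (0.94), without the neutrophils, which were under 100 cells. The only mononuclear phagocyte group among the 32 was that of the ACD library, so the Slc7a11 values may rest largely on it. Gpx3 was closest to Cxcl12 (0.90) and Scn7a (0.90), Gstm1 to Rbms3 (0.83), Rnf217 (0.81) and Nedd4 (0.80), and Gclm to Tfap2b (0.83), Fam132a (0.82) and Ddr1 (0.82). The closest genes of Hmox1 were Plpp1 (0.83), Plod1 (0.82) and Zcchc24 (0.81), of Gclc Map7 (0.79), Med26 (0.73) and Etl4 (0.73), of Srxn1 Asph (0.77), Csf1 (0.73) and Il15 (0.70), and of Txnrd1 Cnnm4 (0.78), Rnf34 (0.76) and Klhl15 (0.74). No member stood among the 3 genes closest to another.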

How the data were processed

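Ear skin cells were digested with collagenase D and DNase, dead cells were removed, and libraries were made with a 10x Genomics 3-prime kit. Per the labels and file headers, the authors made the deposited UMI count matrices with Cell Ranger 3.1.0 on mm10; no normalization had been applied. From these counts, cells were filtered as in the report and gated in Python 3.11.15: each marker's log level was scaled to its percentile 95 and averaged, and a cell joined a class with at least 3 of its markers detected and a score over 1.5 times the next (fibroblast and cartilage were separated by subtype scores, and subtypes needed 2 markers and 1.25 times). Doublets were not removed in the main setting; Scrublet calls, 4.91% of control and 3.88% of ACD cells, were left out in an alternative. Counts were summed per class. Ratios have exact binomial intervals, and the floor for a count of 0 is 3 counts. Functions were tested on simulated data. The 10 genes, lists and gates were chosen with earlier results of these data known. Named genes are the 10, the 3 outermost genes at each end and the 2 most abundant of each list per main class, the 3 genes most like each member (1 of them is not reported here), and genes of the 2 NRF2 lists; Fos was added after its values were seen.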

Additional observations from a re-analysis of the deposited data

Results flagged for a closer look

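For 5 of the 10 genes the ratio of ACD over control lay wholly above 0 in 1 group and wholly below 0 in another, by the 95% counting interval. The difference between groups was not tested in any of these, since there is 1 library per condition. How many of all genes did the same was not computed. Hmox1 had a log2 ratio of 1.19 in peri-follicular fibroblasts and -1.38 in mononuclear phagocytes, where all 28 control UMIs came from 18 macrophages. Gpx3 had 1.98 in peri-follicular fibroblasts, on 8 and 48 UMIs, and -0.76 in lymphocyte-like cells, where 5 cells held 75.0% and 58.4% of its UMIs. Txnrd1 had 0.65 in lymphocyte-like cells and -1.02 in preadipocyte-type fibroblasts. Gclm had 0.58 in mature chondrocytes and -0.65 in lymphocyte-like cells, a class that was not split into lymphocyte types. Gsta4 had 0.56 in adventitial progenitors and -0.58 in Schwann-like cells.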

How the results depend on the processing

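In all, 11 alternatives were run. The number of members past 2-fold in the 4 main classes changed under 4 of them. In these 4 the call was made with 10 CPM added, while the log2 ratios given here are without it. A ratio printed as past 2-fold can therefore still miss the 2-fold call. With the looser gate Gpx3 in cartilage (log2 ratio 1.27) and Hmox1 in mononuclear phagocytes (-1.11) were under it, so the higher count in cartilage and the lower count in phagocytes were 0 each, and the number of past 2-fold ratios over the 11 classes was 2 in place of 4. With all deposited barcodes the phagocyte count was 0 (Hmox1 -1.25). Thinned to 2000 UMIs, the higher count in cartilage was 0 (Gpx3 1.32) and the lower count in keratinocytes was 1, Gstm1. At 20 UMIs the higher count in phagocytes was 1, Slc7a11. The cause of these changes was not tested. Of 133 single ratios, 95 kept their sign in every alternative that gave a value, among them Gpx3 in cartilage (1.27 to 1.59), Hmox1 in phagocytes (-2.65 to -1.11) and in peri-follicular fibroblasts (0.67 to 1.37), and Gstm1 in endothelial cells (-1.89 to -1.24) and pericytes (-1.73 to -1.17). Thinning moved 40 of 133 ratios beyond their counting interval, more than any other setting. No paired analysis was possible because each condition has 1 library. With 62 to 164 control cells in phagocytes and keratinocytes, 7 and 5 of the 10 genes there had too few UMIs for a call.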
